A study of Arabidopsis thaliana with 28 samples.

Results

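The comparison described here sets the strong lines G39 (CBF1OX) and E2 (CBF2OX) against the weak lines G5 (CBF1OX) and E24 (CBF2OX). CBF1OX and CBF2OX are Arabidopsis plants that overexpress CBF1 or CBF2, and each side holds 4 samples, 2 from each line. The 8 samples belong to a series of 28 in 7 groups of 4, measured on Affymetrix arrays as log2 expression values. The other groups were CBF3OX (lines A28 and A30), CBF2DN warm and CBF2DN given cold (lines DN89 and DN96, which overexpress the truncated CBF2Δc), wild-type plants of WS-2 given cold, and wild-type WS-2 plants kept warm. All plants grew on agar for 11 d at 22 °C under continuous light (100 µmol m-2 s-1). The cold groups then spent 24 h at 4 °C under dimmer light (35 µmol m-2 s-1). The entire aerial part was sampled. The promoter that drives each transgene, the accession of the transgenic lines and the pooling of plants are not stated in the labels. Each line is a single transgenic line, so the place of insertion and the level of the transgene cannot be told apart in a difference between lines of a construct.

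The sides were chosen by the measured values themselves, that is, by how many features each line changed against the warm wild type. A feature is a named gene or an unnamed probe set, and 14578 were tested. A feature is said to be called where its Benjamini-Hochberg adjusted p in limma was below 0.05 and its change at least 2-fold, which is 1 on the log2 scale. Line G39 had 1170 called features (8.03%) and line E2 had 753 (5.17%), against 76 (0.521%) in line G5 and 345 (2.37%) in line E24. Without CBF1OX replicate 1 the count for G5 was 31. The strong minus weak differences below are therefore a description of these lines, given with standard errors (SE) and with no p-value. These errors treat samples of the same line as independent and do not measure the spread between lines. The groups that the choice did not use are CBF3OX, CBF2DN and the cold wild type, and the tests come from a fit of those 20 samples. The warm wild type is part of these tests and was also the baseline on which the sides were chosen.

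A member is a feature called between strong and weak lines with the construct as a block, and different by at least 1.5-fold in the same direction in both constructs. There were 251 members, 94 higher and 157 lower in the strong lines, of which 53 and 64 were named genes. In all, 256 features (1.76%) were called between the sides, 97 higher (0.665%) and 159 lower (1.09%). The 5 called features that were no members, AT2G39040, AT2G41480, BGLU25, 262482_at and 260410_at, differed by 0.46 to 0.56 in size between the CBF2OX lines. All strong samples lay apart from all weak samples in 90 of 94 higher members and 153 of 157 lower members, where 11.6% of all features did so, a count that the choice of members fixes in large part. Members numbered 125, 117, 96 and 126 without CBF1OX replicates 1, 2, 3 and 4 and 145 without CBF2OX replicate 1. When each line was averaged to 1 sample, no feature was called. That fit had 1 residual degree of freedom, and 1088 features had an unadjusted p below 0.05 in it.

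CBF1, CBF2 and CBF3 are AP2/ERF transcription factors that are switched on in the cold and bind the CRT/DRE element in the promoters of their target genes. Their targets, the CBF regulon, include COR and dehydrin genes for proteins that protect cells during freezing, and plants that overexpress a CBF carry these transcripts without cold. Such plants are often small, with slow growth of leaf cells.

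No probe set is named for CBF1, CBF2 or CBF3 in the annotation used here. Some unnamed probe sets followed the constructs, and one was high among warm plants in CBF1OX alone. It stood at 9.92 and 9.87 in G39, against 7.74 and 6.95 in G5 and 2.19 to 2.3 in warm wild-type plants. The line difference was 2.55 ± 0.18 (SE), and G39 lay above G5. Another was high in CBF2OX and in CBF2DN, and stood at 12.19 and 11.66 in E2, against 11.51 and 11.85 in E24 and 3.12 to 3.63 in warm wild-type plants. The samples of E2 and E24 overlapped, with a difference of 0.24 ± 0.38. The one that was high in CBF3OX lay between 3.50 and 3.98 in all 8 samples.

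**Figure D1:**
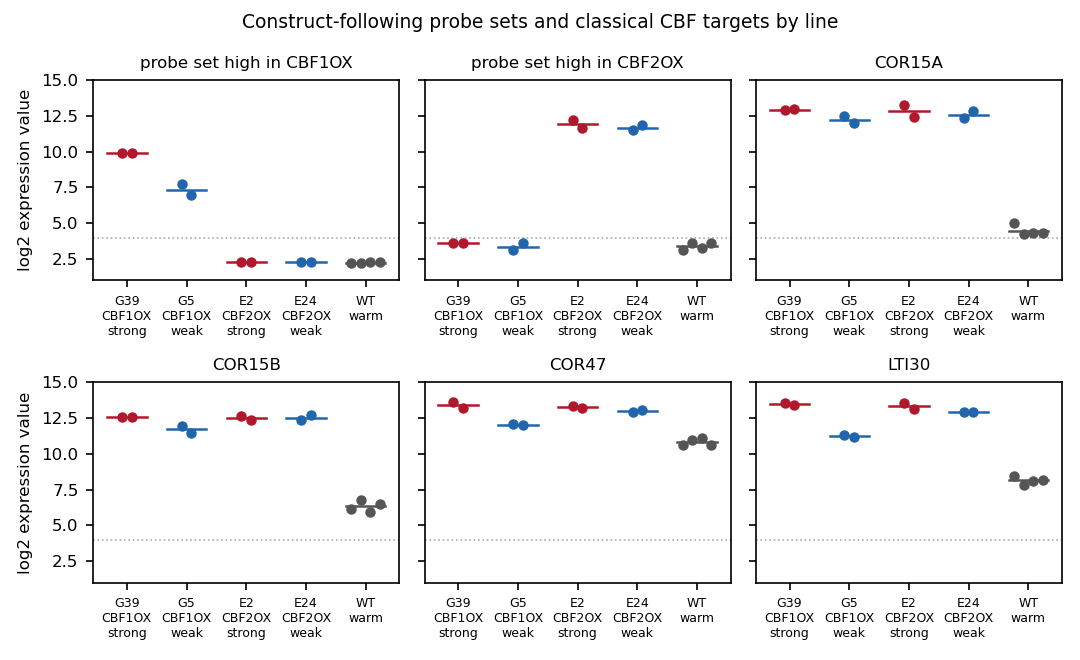
Log2 expression value (vertical axis) of the unnamed probe sets high in CBF1OX and in CBF2OX and of the classical CBF targets COR15A, COR15B, COR47 and LTI30, by line, with strong lines in red, weak lines in blue and warm wild type in grey. Points are samples, horizontal bars are means, and the dotted line is the detection level of 4; the probe set high in CBF1OX separates G39 from G5, while that of CBF2OX overlaps between E2 and E24.

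The classical targets tested, 4 of the 20 entries on their list, were above the warm wild type in both strong and weak lines and were no members. COR15A, whose product protects chloroplasts during freezing, stood at 12.89 and 12.94 in G39 and 13.26 and 12.41 in E2. In the weak lines it stood at 12.48 and 11.97 in G5 and 12.35 and 12.83 in E24, against 4.27 to 5.01 in warm wild-type plants. Strong and weak samples overlapped, with a difference of 0.47 ± 0.23. COR15B, its close relative, differed by 0.43 ± 0.21 and also overlapped. The dehydrin gene COR47 differed by 0.84 ± 0.22 and the dehydrin gene LTI30 by 1.32 ± 0.35, and for both every strong sample lay above every weak one. Most of that difference lay in CBF1OX, where COR47 (1.36) and LTI30 (2.24) were called between the lines. LTI30 stood at 13.52 and 13.42 in G39 against 11.29 and 11.17 in G5, and at 13.52 and 13.14 in E2 against 12.92 and 12.94 in E24. Of the 7 dehydrin and LEA genes tested, which include COR47 and LTI30, 0 were members, with a median of 0.48 beside 0.01 over all features.

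Between the lines of CBF1OX, 855 features were called (5.87%), 363 higher and 492 lower in G39 than in G5. Between the lines of CBF2OX, 334 were called (2.29%), 140 higher and 194 lower in E2 than in E24. Called the same way in both were 124 features, 44 higher and 80 lower, which is 14.5% of the CBF1OX calls and 37.1% of the CBF2OX calls. All 124 were members. Over all 14578 features the 2 line differences correlated at 0.28, a description across features that share the arrays. The difference was larger between the CBF1OX lines for 72 of 94 higher and 109 of 157 lower members. The line differences of the constructs departed from each other by the call rule in 614 of all features (4.21%). These values come from the 8 samples on which the sides were chosen, G39 with the most calls and G5 with the fewest, so the larger step in CBF1OX goes with that choice and is a description. Without CBF2OX replicates 1 and 3 in turn, 204 and 183 features were called between the CBF2OX lines, and 71 and 66 the same way in both constructs.

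**Figure D2:**
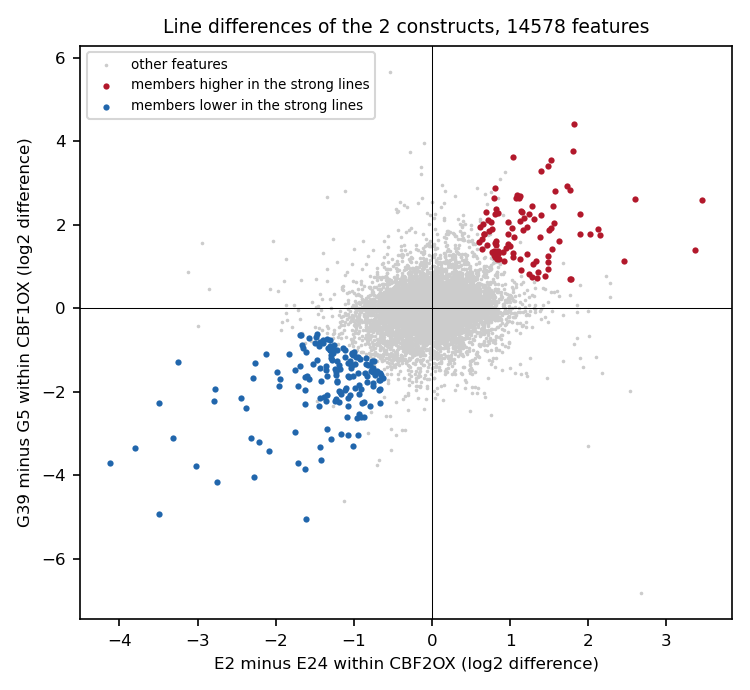
Log2 difference G39 minus G5 within CBF1OX (vertical axis) against E2 minus E24 within CBF2OX (horizontal axis) for 14578 features. The 94 members higher in the strong lines (red) lie in the upper right and the 157 lower members (blue) in the lower left by construction, while the other features (grey) scatter in all directions.

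The named gene with the highest strong minus weak difference was AT2G24560, at 3.12 ± 0.53. It stood at 8.87 and 9.07 in G39 and 8.87 and 8.17 in E2, against 4.12 and 4.98 in G5 and 6.30 and 7.09 in E24. Both weak lines lay above the warm wild type (2.37 to 2.69), which was under the detection level of 4. AT1G16850 had the same order of lines. Its values were 11.62 and 11.37 in G39 and 10.89 and 10.73 in E2, against 8.15 and 7.60 in G5 and 9.72 and 9.81 in E24, with 2.49 to 3.24 in warm wild-type plants. Its difference of 2.33 ± 0.48 held a 3.62 step between the CBF1OX lines and a 1.04 step between the CBF2OX lines. Without any single one of the 8 samples the call of AT1G16850 ended, and that of AT2G24560 ended without 6 of them.

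On the sugar and starch list 2 genes were members, both sugar transporter genes, in opposite directions. SWEET13 (AT5G50800), a sucrose transporter of the plasma membrane, stood at 6.68 and 6.75 in G39 and 6.67 and 7.01 in E2. It stood at 3.94 and 4.25 in G5 and 3.54 and 4.94 in E24, against 3.65 to 4.2 in warm wild-type plants. The weak lines thus overlapped the wild type, and the strong minus weak difference of 2.61 ± 0.28 was close to the same in both constructs (2.62 and 2.6). SWEET16 (AT3G16690), a sugar transporter of the vacuole membrane, went the other way. It stood at 2.98 and 3.13 in G39 and 3.52 and 3.19 in E2, against 4.46 and 4.31 in G5 and 4.25 and 4.13 in E24 and 4.69 to 5.21 in warm wild-type plants. The strong samples lay under the detection level, so the size of the difference, -1.08 ± 0.14, depends on the background floor. Of 16 sugar and starch genes tested, 1 was higher, 1 lower and 14 were not called, with a median of -0.11. SWEET1, a glucose transporter gene, differed by 1.04 ± 0.24 and APL4, for a large subunit of ADP-glucose pyrophosphorylase, by 0.85 ± 0.20, and neither was called.

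BETA-VPE and GAMMA-VPE encode vacuolar processing enzymes, cysteine proteases that mature or degrade vacuolar proteins, and lay on opposite sides of the comparison. No list of this family was fixed. BETA-VPE (AT1G62710) stood at 6.56 and 6.68 in G39 and 6.90 and 6.61 in E2, against 5.35 and 4.37 in G5, 4.73 and 4.48 in E24, and 3.47 to 4.14 in warm wild-type plants. Its difference was 1.96 ± 0.22. GAMMA-VPE (AT4G32940), named after its values were seen, stood at 9.97 and 9.97 in G39 and 10.23 and 10.06 in E2. It stood at 11.40 and 11.08 in G5, 11.39 and 11.33 in E24 and 11.87 to 12.03 in warm wild-type plants, and differed by -1.24 ± 0.10. The weak lines of both genes lay between the strong lines and the wild type.

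Among 47 wall growth genes, 2 were higher members, 2 were lower members and 43 were not called, with a median of -0.11. The higher ones were EXLA2 (AT4G38400), an expansin-like gene, and XTH20 (AT5G48070), which encodes an enzyme that cuts and rejoins xyloglucan. EXLA2 stood at 6.73 and 7.30 in G39 and 5.55 and 5.93 in E2, against 4.10 and 4.15 in G5 and 4.81 and 5.05 in E24, with 3.78 to 4.17 in warm wild-type plants. XTH20 stood at 9.21 and 9.29 in G39 and 7.98 and 8.33 in E2, against 7.02 and 6.98 in G5, 6.62 and 7.22 in E24, and 6.26 to 6.76 in warm wild-type plants. In both genes G39 was above E2. The lower ones were EXPA8 (AT2G40610), an expansin that loosens growing walls, and XTH19 (AT4G30290), a relative of XTH20. EXPA8 stood at 6.09 and 6.22 in G39 and 7.94 and 7.32 in E2, against 8.58 and 8.94 in G5 and 8.37 and 8.70 in E24, with 8.56 to 9.29 in warm wild-type plants. XTH19 stood at 7.22 to 7.47 in the strong lines, against 7.87 to 8.97 in the weak lines and 8.39 to 8.84 in warm wild-type plants. The differences were 1.85 ± 0.40 for EXLA2, 1.74 ± 0.23 for XTH20, -1.75 ± 0.35 for EXPA8 and -1.14 ± 0.21 for XTH19. The call of EXLA2 ended without any single one of the 8 samples, and that of EXPA8 ended without 6 of them.

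**Figure D3:**
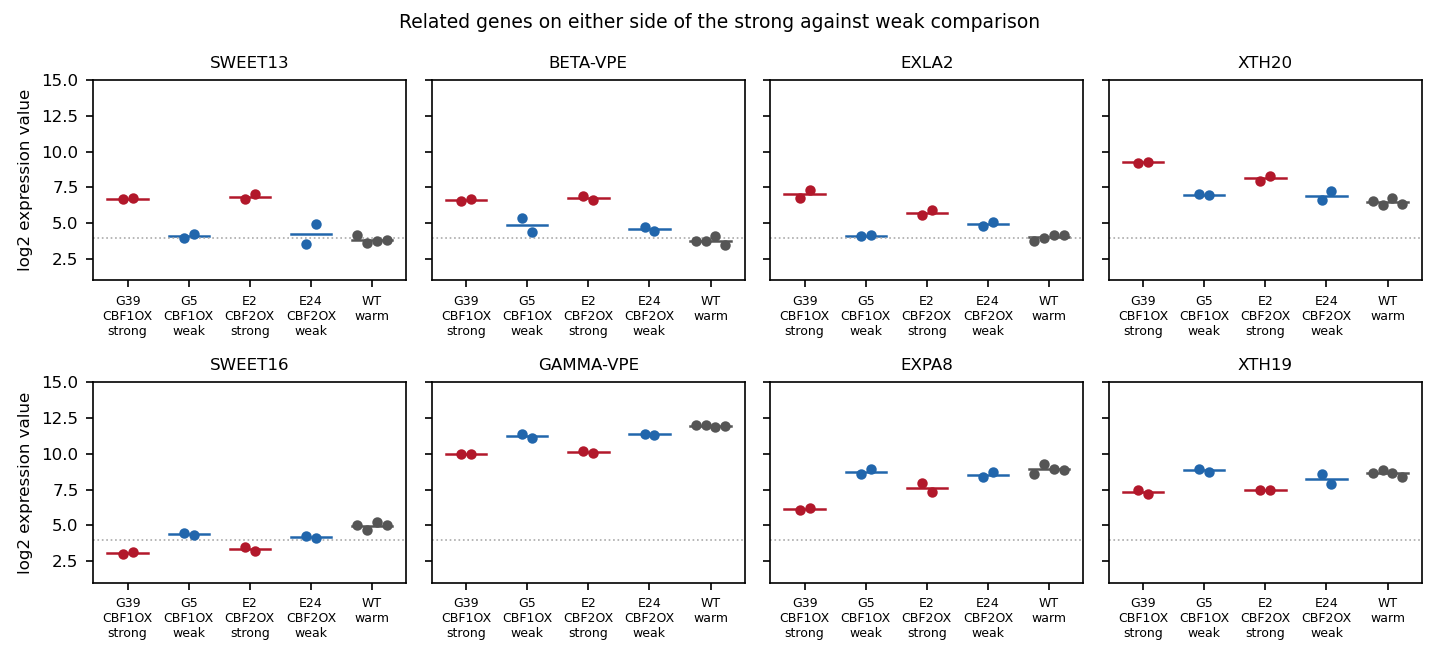
Log2 expression value (vertical axis) of 4 higher members (SWEET13, BETA-VPE, EXLA2, XTH20, upper row) and 4 lower members (SWEET16, GAMMA-VPE, EXPA8, XTH19, lower row) by line, with strong lines in red, weak lines in blue and warm wild type in grey. Points are samples, bars are means and the dotted line is the detection level of 4; SWEET13 in the weak lines sits at the wild-type level, and GAMMA-VPE in the weak lines sits between the strong lines and the wild type.

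The other named genes among the 15 highest differences have no functional annotation in the sources used here. AT3G14890 stood at 7.63 and 7.86 in G39 and 7.60 and 7.15 in E2, against 4.92 and 4.91 in G5, 5.6 and 5.6 in E24 and 4.76 to 5.24 in warm wild-type plants. AT1G14580 and AT4G36010 followed with 2.07 ± 0.26 and 2.01 ± 0.23. AT3G44970, AT4G12490, AT1G10640, AT2G16990, AT3G54400 and AT1G32860 differed by 1.73 to 1.91. Of these, AT4G12490 had nearly equal steps in both constructs (1.79 and 2.02), while AT2G16990 had 2.65 between the CBF1OX lines and 1.07 between the CBF2OX lines. LCR69, a plant defensin gene of the defence list, differed by 1.15 ± 0.23. Other higher members with a gene symbol, named after their values were seen, were UGT74D1, a glucosyltransferase (1.08 ± 0.19), and MYBC1, a MYB transcription factor (1.01 ± 0.15). Among unnamed probe sets the highest differences were those of 266142_at (3.03 ± 0.28), 248466_at (2.80 ± 0.38) and 254805_at (2.53 ± 0.42).

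The lowest difference of any named gene was that of AT3G16670. It stood at 3.12 and 3.37 in G39 and 3.32 and 3.59 in E2, against 7.86 and 8.47 in G5 and 6.54 and 7.37 in E24, with 8.01 to 8.78 in warm wild-type plants. All strong samples lay under the detection level, and the difference was -4.21 ± 0.33. AT2G16005 stood at 2.58 to 3.32 in the strong lines, against 5.38 to 6.75 in the weak lines and 4.77 to 6.56 in warm wild-type plants, a difference of -3.40 ± 0.29. AT1G67860 stood at 3.17 to 3.67 in the strong lines, against 5.61 to 6.69 in the weak lines and 6.48 to 7.18 in warm wild-type plants. No strong sample of these 3 genes reached the lowest weak sample, as the choice of members favours. AT3G15450 stood at 6.91 to 7.34 in the strong lines, against 9.12 to 10.63 in the weak lines and 9.60 to 10.10 in warm wild-type plants.

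JAL22, which encodes a jacalin-related lectin, stood at 6.75 and 6.63 in G39 and 7.22 and 7.45 in E2, against 9.47 and 9.92 in G5 and 9.17 and 7.84 in E24. Its difference was -2.09 ± 0.42, and without single samples the call ended in 7 of 8 cases. JAL34, another lectin gene of this family, differed by -1.12 ± 0.21. AT5G38020 and AT5G38030, at -1.95 and -1.18, were the 1 pair of named members that are neighbouring genes, by the gene order of TAIR10.1. The remaining genes of the 15 lowest, AT1G23130, AT3G29410, AT1G64590, AT5G15180, AT4G33666, AT1G14120, AT2G30930 and AT1G14960, differed by -2.11 to -1.62. The lowest unnamed probe sets were 266353_at (-3.91 ± 0.32), 266330_at (-3.57 ± 0.35) and 245736_at (-3.45 ± 0.34).

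Further lower members were named after their values were seen. ATG8E, a ubiquitin-like protein of autophagy, stood at 5.94 to 6.39 in the strong lines, against 7.11 to 7.58 in the weak lines and 7.34 to 7.64 in warm wild-type plants. AKINBETA1, a beta subunit of the energy-sensing kinase SnRK1, stood at 5.35 to 5.51 in the strong lines, against 5.82 to 7.23 in the weak lines and 6.24 to 6.91 in warm wild-type plants. The AKINBETA1 step was -1.47 between the CBF2OX lines and -0.62, not called, between the CBF1OX lines. ALN, the allantoinase of purine breakdown, differed by -1.47 ± 0.32, MSRB9, a methionine sulfoxide reductase, by -1.56 ± 0.30, and STR18, a sulfurtransferase, by -1.23 ± 0.17. HAT2, a homeodomain-leucine zipper transcription factor, differed by -1.35 ± 0.20. Of 11 glutathione S-transferase genes tested, 1 was a lower member, GSTU26 (-1.27 ± 0.21), and 0 were higher, with a median of -0.24. GSTU20 (1.01 ± 0.25) was not called.

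Members at the edge of the rule were 255692_at (-1.0), 252127_at (1.01) and 251133_at (-1.01) just inside the 2-fold threshold. AT3G25930 (-0.995), YAB5 (0.985) and 250565_at (0.983) lay just outside it. Just inside the 1.5-fold threshold within a construct were 250300_at (0.60) and 258300_at (0.61) between the CBF2OX lines. AKINBETA1 (-0.62) was just inside it between the CBF1OX lines. The filter on low values kept features above the detection level in at least 4 of 28 arrays, so a member could enter through the lines in which it was high. Of the 94 higher members 10 had a weak-line mean and 26 a warm wild-type mean under that level, and of the 157 lower members 35 had a strong-line mean under it. Those differences depend on the background floor.

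Set beside the warm wild type, the medians of the weak lines lay between the wild type and the strong lines, for the higher and for the lower members. These values share the wild-type samples and include those that chose the sides. The 94 higher members had a median of 2.42 in G39 and 1.89 in E2, against 0.46 in G5 and 0.77 in E24. Called higher than the wild type were 90 in G39 and 86 in E2, against 19 in G5 and 38 in E24, and 55 were called in neither weak line. The 157 lower members had a median of -1.84 in G39 and -1.63 in E2, against -0.18 in G5 and -0.41 in E24. Called lower were 143 in G39 and 144 in E2, against 0 in G5 and 16 in E24, and 141 were called in neither weak line. Over all 14578 features, 574 were called higher than the wild type in G39, 369 in E2, 68 in G5 and 243 in E24. Called lower over all features were 596 in G39, 384 in E2, 8 in G5 and 102 in E24. Lower calls were thus few in G5 among all features too. By sample, the medians of the higher members ran from 1.84 to 2.44 in the strong lines and from 0.42 to 0.84 in the weak lines. Those of the lower members ran from -1.93 to -1.63 and from -0.58 to -0.14.

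CBF3OX gave a test in samples that the choice of sides did not use. In the 20-sample fit 296 features rose (2.03%) and 274 fell (1.88%) in CBF3OX against the warm wild type. Of the 94 higher members 75 rose (79.8%) and 0 fell, with a median of 1.61, and of the 157 lower members 115 fell (73.2%) and 0 rose, with a median of -1.37. Every higher member had a positive and every lower member a negative value in CBF3OX. Seen from the other side, 25.3% of the features that rose and 42.0% of those that fell in CBF3OX were members. Bulk samples cannot tell fewer cells of a type from less RNA per cell.

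Members with known roles moved in CBF3OX as follows. The CBF3OX samples were 2 from each of lines A28 and A30, and the fit treated them as 4 independent samples. Its p-values therefore do not measure the spread between lines. SWEET13 stood at 5.79 ± 0.21 in CBF3OX and 3.85 ± 0.24 in warm wild-type plants (SD, n = 4 each), and rose by 1.94 ± 0.18 (adjusted p = 1.78e-07). BETA-VPE rose by 2.26 ± 0.26 (adjusted p = 4.16e-06), XTH20 by 1.58 ± 0.26 (adjusted p = 0.000229) and EXLA2 by 1.71 ± 0.21 (adjusted p = 1.04e-05). GAMMA-VPE fell by 1.71 ± 0.12 (adjusted p = 2.9e-09), SWEET16 by 1.46 ± 0.17 (adjusted p = 5.9e-06) and EXPA8 by 1.39 ± 0.29 (adjusted p = 0.00275). XTH19 (-0.74 ± 0.24, adjusted p = 0.0475) did not reach 2-fold. AT3G16670 stood at 5.64 ± 0.97 in CBF3OX and 8.54 ± 0.36 in warm wild-type plants (SD, n = 4 each), a fall by 2.9 ± 0.34 (adjusted p = 5.71e-06). Its line means were 4.94 in A28 and 6.33 in A30. HAT2 fell by 1.36 ± 0.24 (adjusted p = 0.000452) and ALN by 1.17 ± 0.18 (adjusted p = 0.000126). JAL22 (-0.81, adjusted p = 0.0138 in limma), GSTU26 (-0.90, adjusted p = 0.0189) and AKINBETA1 (-0.95, adjusted p = 0.0019) missed a call in CBF3OX only by the 2-fold threshold. So did LCR69 (0.99, adjusted p = 1.37e-06) and MYBC1 (0.71, adjusted p = 0.00154). The probe set 266142_at (0.91, adjusted p = 0.0895) reached neither threshold.

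Taken over all features called in CBF3OX, members or not, the 296 that rose had a median strong minus weak difference of 0.97, with 1.39 between the CBF1OX lines and 0.46 between the CBF2OX lines. The 274 that fell had a median of -1.07, with -1.27 and -0.90. For 99.3% of each set the strong minus weak difference had the sign of the CBF3OX change. Over all 14578 features these values correlated at 0.79, a description across features, which are not independent replicates.

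**Figure D4:**
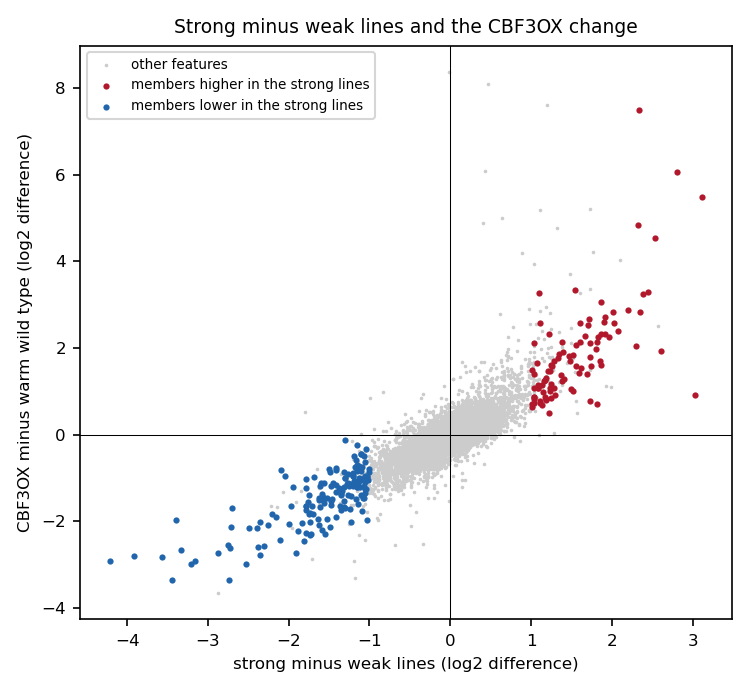
Log2 difference of CBF3OX minus warm wild type (vertical axis, 20-sample fit) against strong minus weak lines (horizontal axis) for 14578 features. All 94 members higher in the strong lines (red) lie above 0 and all 157 lower members (blue) below 0 on the vertical axis.

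The lines A28 and A30 of CBF3OX are a pair that the choice of sides did not use. Against the warm wild type 660 and 549 features were called in A28 and A30, and between A30 and A28 a single one was (0.00686%), AT5G55070, and 6 and 4 were called without CBF3OX replicates 2 and 4 in turn. Of the members 0 were called between A30 and A28 in limma. An unadjusted p below 0.05 in that fit was reached by 15 of 94 higher and 42 of 157 lower members. Of all 14578 features 591 reached it, a smaller share than in either set of members, and the cause was not tested. The higher members had a median A30 minus A28 difference of -0.25 and the lower members one of 0.29.

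In the wild type, 24 h of cold raised 1276 features (8.75%) and lowered 1416 (9.71%). Of the 94 higher members 56 rose (59.6%) and 3 fell, and of the 157 lower members 95 fell (60.5%) and 4 rose. BETA-VPE rose by 5.42 ± 0.26 (adjusted p = 2.04e-12), SWEET13 by 4.57 ± 0.18 (adjusted p = 1.04e-13) and XTH20 by 2.87 ± 0.26 (adjusted p = 1.4e-08), each by more than in CBF3OX by these estimates, a difference that was not tested. EXPA8 fell by 5.15 ± 0.29 (adjusted p = 2.16e-11), AKINBETA1 by 3.19 ± 0.19 (adjusted p = 4.5e-11) and ATG8E by 2.03 ± 0.23 (adjusted p = 3.77e-07). Cold plants also had dimmer light and were older by the time of treatment, which cannot be told apart from cold here.

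CBF3OX and cold together split the members. The same split over all features is not given here, so these counts only describe the members. Called the same way in both were 52 higher and 74 lower members, and 23 higher and 38 lower members were called in CBF3OX without a call in the cold. AT3G44970 was one of these, with 2.72 ± 0.34 in CBF3OX (adjusted p = 1.12e-05) and -0.04 ± 0.34 in the cold (adjusted p = 0.94). AT3G16670 (-0.69 in the cold, adjusted p = 0.0995 in limma) and HAT2 (-0.37, adjusted p = 0.206) were likewise called in CBF3OX and not in the cold. AT1G67860 and GAMMA-VPE were called in CBF3OX too, and missed a call in the cold only by the 2-fold threshold. Their cold values were -0.65 (adjusted p = 0.0129) and -0.57 (adjusted p = 0.000392), in the direction of CBF3OX. Called the same way in the cold alone were 4 higher and 21 lower members, and 12 higher and 20 lower members were called in neither. AT1G19020, the 1 named gene among 7 members called the opposite way in the cold, stood at 3.15 to 4.03 in the strong lines, against 4.07 to 5.38 in the weak lines and 4.95 to 5.72 in warm wild-type plants. It fell by 1.89 ± 0.28 in CBF3OX (adjusted p = 9.32e-05) and rose by 1.66 ± 0.28 in the cold (adjusted p = 5.43e-05).

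CBF2DN in warm plants changed 5 of all features (0.0343%), and 0 members were called in limma. At an unadjusted p below 0.05 in limma there were 18 of 94 higher and 18 of 157 lower members, beside 1061 of all 14578 features. The share over all features was smaller than in either set of members, and the cause was not tested. In warm CBF2DN samples the medians ran from -0.01 to 0.03 over the higher members and from -0.27 to 0.12 over the lower members. In cold CBF2DN samples they ran from 0.76 to 1.27 and from -1.65 to -1.06, against 1.47 to 1.70 and -1.41 to -1.29 in cold wild-type plants, all relative to the warm wild-type mean. The cold values of the lower members thus lay to either side of the wild type, with line DN89 nearer 0 and line DN96 farther from it.

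**Figure D5:**
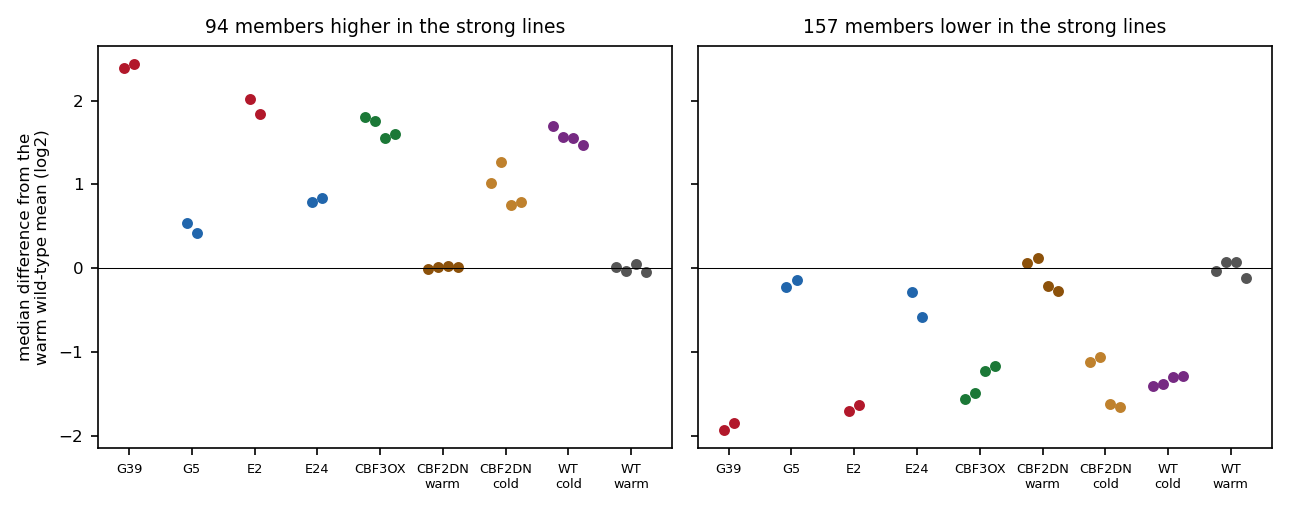
Median log2 difference from the warm wild-type mean (vertical axis) over the 94 higher members (left) and the 157 lower members (right), 1 point per sample, by line or group. Strong lines (G39, E2) are red and weak lines (G5, E24) blue; the weak lines lie at 0.42 to 0.84 on the left and at -0.58 to -0.14 on the right, CBF3OX and the cold wild type lie toward the strong lines, and warm CBF2DN lies near 0.

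Other gene lists held few members, but lists count only genes that the annotation names. Of the 14578 tested features 6680 were unnamed, among them 134 of the 251 members. The dehydrin and LEA list had 32 entries with 7 tested, and the sugar and starch list 60 with 16. The clock list had 33 entries with 2 tested, and the CBF-linked transcription factor list 32 with 1. A low count thus does not show that a family lacks members. Of 12 nuclear photosynthesis genes 0 were called, with a median of -0.23. PSAN, a photosystem I subunit, differed by -1.0 ± 0.33 in all, and stood at 10.51 and 10.87 in G39 and 12.31 and 12.13 in E2, against 12.40 and 12.67 in G5 and 12.36 and 12.37 in E24. G39 alone was low. LHCB4.2, an antenna protein gene, went the same way, at -1.40 between the CBF1OX lines and 0.41 between the CBF2OX lines. Of 6 salicylate and jasmonate defence genes LCR69 was a higher member, and of 7 anthocyanin and flavonol genes 0 were called, with a median of 0.28. Neither the 10 cytochrome P450 genes that carry such a symbol (median -0.19) nor the 4 heat-shock protein genes (-0.20) held a member. The 2 clock genes (0.01), 2 flowering-time genes (-0.12), 2 senescence genes (-0.30) and 2 gibberellin and growth-restraint genes (0.58) held none, nor did the single CBF-linked transcription factor gene (0.33). The proline, abscisic acid, aquaporin and lipid lists had no named feature tested.

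Markers of tissue that was not labelled as sampled were checked beside these results. The leaf list, the nuclear photosynthesis genes, had a mean level of 9.92 to 10.42 in the strong lines, 10.31 to 10.55 in the weak lines and 10.31 to 10.45 in warm wild-type plants. Of 3 root genes 0 were called between the sides, and their mean level was 6.14 to 6.36 in the strong lines, 6.53 to 7.02 in the weak lines and 6.58 to 7.14 in warm wild-type plants. PYK10, a beta-glucosidase gene of this list, stood at 11.27 to 11.40 in the strong lines, against 11.48 to 12.46 in the weak lines. In warm wild-type plants it stood at 11.59 to 12.21. Its level raised the list mean, and whether it came from root tissue was not tested. The root expansin genes EXPA7 and EXPA18 lay at 3.23 to 4.00 and 3.68 to 3.91 in the strong lines, under or at the detection level. The part of these levels in the lower members was not tested. The 1 seed gene tested, PAP85, lay at 5.16 to 5.29 in the strong lines, against 5.16 in every weak sample.

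In 8 features the lines of both constructs were called in opposite directions, so that strong and weak do not describe them. JRG21, a jasmonate-regulated gene, stood at 5.67 and 5.67 in G39 and 3.70 and 3.59 in E2, against 2.83 and 2.86 in G5 and 4.86 and 4.68 in E24, with 2.61 to 2.67 in warm wild-type plants. G39 and E24 were the high lines. The unnamed probe set 252618_at stood at 7.04 and 7.55 in G39 and 9.48 and 9.41 in E2, against 10.55 and 10.64 in G5 and 7.35 and 7.53 in E24, with 9.90 to 10.68 in warm wild-type plants. Here G39 and E24 were the low lines. AT4G15680 and AT1G57770 were higher in G39 than in G5 (1.32 and 1.05) and lower in E2 than in E24 (-1.39 and -1.02). AT1G03820, 252746_at, 263153_s_at and 266326_at ran the other way.

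By position, the 117 named members lay on all 5 chromosomes. Chromosome 2 held 20.5% of them and 14.8% of all named features tested, and chromosome 5 held 17.9% and 24.0%. The named members shared 1 neighbouring pair, given above, and the 134 unnamed members were not placed.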

How the data were processed

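The authors deposited 1 log2 value per probe set and array. GCRMA and limma are named, per the submitters' processing notes, with no version or role. The log base was read from the range of the values. GCRMA places dim probe sets near a floor. Each column matched 1 sample, and 0 columns were left over. Precision is limited by the number of arrays.

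Features needed a log2 value above 4 in at least 4 of 28 arrays, with 1 probe set per gene (highest mean). Fits used limma 3.58.1 in R 4.3.3 (statmod 1.5.0 for random blocks) and figures Python with matplotlib. The strong against weak fit used 8 samples with the construct as a block, the line fit used 28 samples with 12 means of line and temperature, and the third fit used the 20 samples of the other groups. P-values were adjusted over all features by Benjamini-Hochberg and measure only the spread between these samples. In the text rose, fell and called mean adjusted p below 0.05 and at least 2-fold. Scripts were tested on simulated data.

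The members, the lists and the rule for named genes were chosen with earlier results of these data known. The rule takes the 15 highest and 15 lowest named members, up to 4 genes per list, the 3 highest and 3 lowest unnamed probe sets, the classical targets, the construct-following probe sets and the features beside the fold threshold. Genes outside it are said to be named after their values were seen. Alternatives covered array scaling, filters, the fit, line and replicate blocks, thresholds and single samples left out.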

Additional observations from a re-analysis of the deposited data

Results flagged for a closer look

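Of 160 groups of 4 samples looked at, the strong and the weak samples of 80 features, 5 held 1 sample far from the other 3 by Dixon's criterion. That criterion flags about 1 in 20 groups of 4 like samples. Each group here joined a CBF1OX line and a CBF2OX line, so the 5 cannot be judged against that rate. In the strong lines AT3G15450 stood at 7.34 in CBF2OX replicate 1 (E2) against 6.91 to 6.97 in the others, and XTH19 at 7.22 in CBF1OX replicate 4 (G39) against 7.45 to 7.47. In the weak lines AT3G15450 stood at 10.63 in CBF2OX replicate 3 (E24) against 9.12 to 9.24, AT4G36010 at 5.0 in CBF1OX replicate 2 (G5) against 5.74 to 5.76, and PSAN at 12.67 in CBF1OX replicate 2 (G5) against 12.36 to 12.40.

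Of the 80 features looked at, 28 had a G39 minus G5 difference that departed from the E2 minus E24 difference by the call rule in limma, as did 614 of all 14578 features (4.21%). The sides were chosen on these samples, and 8 of the 28 were picked because their lines were called in opposite directions, so the values are a description. Among the higher members the CBF1OX lines differed by more for AT2G24560 (2.6), AT1G16850 (2.58), EXLA2 (2.08), 254805_at (2.03), 248466_at (1.96), AT2G16990 (1.58), AT3G44970 (1.55), AT1G10640 (1.18) and LCR69 (1.01). Among the lower members they differed by more for AT3G29410 (-2.09), JAL22 (-1.83), EXPA8 (-1.70), ALN (-1.60), AT1G23130 (-1.54) and AT5G15180 (-1.51). Among features that were no members, the values were 2.55 for the unnamed probe set high in CBF1OX, 1.84 for LTI30, 1.04 for COR47, -1.70 for PSAN and -1.81 for LHCB4.2. The 8 features called in opposite directions had 3.95 (JRG21), 2.71 (AT4G15680), 2.08 (AT1G57770), -2.46 (263153_s_at), -2.75 (266326_at), -3.13 (AT1G03820), -4.53 (252746_at) and -5.31 (252618_at).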

How the results depend on the processing

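The number of members depended on the samples and settings. The members called in other groups moved by less than 1.5 times when single samples were left out, and by more with no filter on low values. Without single samples there were 96 to 238 members (33 to 100 higher, 63 to 153 lower), fewest without CBF1OX replicate 3. The calls of AT1G14120, AT3G29410 and JAL22 ended in 7 of these 8 cases, those of AT2G16990 and 254805_at in 6 and those of AT1G14960 and AT5G15180 in 5. The CBF1OX lines gave 728 to 854 features, the CBF2OX lines 183 to 382, both the same way 66 to 120 and G5 against the wild type 31 to 76. G39, E2 and E24 against the wild type gave 1092 to 1176, 661 to 784 and 318 to 372. The CBF3OX lines gave 1 to 6. Members called in CBF3OX were 72 to 75 higher and 107 to 121 lower, in the cold 55 to 57 and 90 to 96, and in CBF2DN 0.

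With no filter on low values there were 46 members (16 higher, 30 lower), 2 features between the CBF3OX lines, and 11 higher and 25 lower members called in CBF3OX and 10 and 21 in the cold; the cause was not tested. With each line as 1 sample there were 0 members (0 higher, 0 lower), with fewer samples by construction and 1088 features at an unadjusted p below 0.05. At 1.5-fold there were 391 (251 lower), and 124 (44 higher, 80 lower) were called in each construct on its own. Centring, quantile normalization and the 28-sample fit gave 278, 272 and 287 members, of which 250, 249 and 248 were among the 251, and the line as a random block 225.

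Replicate numbers did not pair the samples. Same-numbered samples correlated at -0.24 to 0.28 in their deviations, and CBF1OX replicates 1 and 2 are a weak line where CBF2OX replicates 1 and 2 are a strong one. A replicate block gave 286 members, and in the 28-sample fit 209 features between the CBF2OX lines and 72 the same way in both constructs. Of 688 values of 43 named features under alternatives, 543 kept their side of the threshold and direction, 141 lost the call and 4 gained it. No named gene had a second probe set to try. The planned promoter comparison was not run, as no promoter sequence was used here.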
